A study of Mus musculus with 32 samples.

Results

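The polo-like kinases are a small family of serine/threonine kinases, and the results here follow 4 of them, Plk1, Plk2, Plk3 and Plk4, through RNA-seq, XR-seq and Damage-seq of 4 mouse organs after cisplatin. The members were taken by symbol and matched to Ensembl identifiers with GENCODE M21 on GRCm38 (mm10). All 4 were found among the 25059 genes of the RNA-seq counts, and 3 of them, Plk1, Plk2 and Plk4, among the 25058 genes of the XR-seq and Damage-seq counts. Plk3 was not analysed here in those assays. The family was chosen by the measured kidney RNA-seq change after cisplatin, where Plk3 rose strongly, so the kidney RNA-seq values of the family are given as a description, with no test.

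The animals were female C57BL/6J mice of 6 to 7 months. Cisplatin was injected intraperitoneally at 10 mg per kg at Zeitgeber time (ZT) 1 and organs were taken at ZT 5, which is 4 h later, although a label of each sample states 2 h. Controls received saline, and the control libraries used here are RNA-seq libraries. For each of kidney, liver, lung and spleen there were 2 control and 2 cisplatin RNA-seq libraries, 2 XR-seq libraries and 2 Damage-seq libraries, all XR-seq and Damage-seq libraries being from cisplatin-treated mice. XR-seq sequences the short oligomers that nucleotide excision repair cuts out around an adduct, and Damage-seq maps adducts still present in the DNA. Both were counted separately on the transcribed strand (TS), which RNA polymerase reads as template, and the non-transcribed strand (NTS). Whole organs were sequenced, so a change in the share of a cell type and a change of RNA per cell cannot be told apart.

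Plk1 drives entry into and passage through mitosis and is made mainly by dividing cells. Plk4 starts the duplication of centrioles and is likewise needed by dividing cells. Plk2 and Plk3 are known as rapidly induced genes: they respond to growth signals and to stress, and p53 can induce both in some settings. Cisplatin forms adducts mainly between neighbouring guanines, on GG, and these adducts stall RNA polymerase on the TS, which recruits transcription-coupled repair to that strand.

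Plk1 (ENSMUSG00000030867) lies on chromosome 7, 122159439 to 122169873, plus strand. Plk2 (ENSMUSG00000021701) lies on chromosome 13, 110395046 to 110400844, plus strand. Plk3 (ENSMUSG00000028680) lies on chromosome 4, 117128655 to 117133963, minus strand. Plk4 (ENSMUSG00000025758) lies on chromosome 3, 40800019 to 40816883, plus strand. Plk2 and Plk3 are short genes of 5799 and 5309 bp, Plk1 spans 10435 bp and Plk4 spans 16865 bp. The end of Plk3 overlaps the end of Tctex1d4, on the opposite strand, by 84 bp. Plk1 holds the small antisense gene model Gm44985 over 1016 bp, and Ern2, on the minus strand, ends 19 bp beyond Plk1. The RNA-seq kit as described does not mark strand, so reads in such an overlap cannot be assigned to either gene with certainty.

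The promoters are shown because the members moved in different ways after cisplatin. Each runs from 250 bases before to 50 bases after the RefSeq start, 5′ to 3′ on the gene's own strand (RefSeq, GRCm38.p6), and all 4 members had an entry. Capitals mark TGACG, the core of the cAMP response element that CREB and ATF factors bind, and TTTGAA, the letters of the cell cycle homology region of mitotic genes, each searched on both strands, so that CGTCA and TTCAAA also count. The motifs were chosen after the sequences had been seen. The windows are chr4:117133914-117134213 for Plk3, chr13:110394794-110395093 for Plk2, chr7:122159185-122159484 for Plk1 and chr3:40799701-40800000 for Plk4.
Plk3: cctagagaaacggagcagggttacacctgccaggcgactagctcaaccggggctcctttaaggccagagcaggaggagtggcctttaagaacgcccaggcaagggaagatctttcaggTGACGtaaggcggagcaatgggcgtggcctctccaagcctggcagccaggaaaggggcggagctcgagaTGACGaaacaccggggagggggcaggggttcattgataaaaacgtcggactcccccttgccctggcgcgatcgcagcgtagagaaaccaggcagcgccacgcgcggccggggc
Plk2: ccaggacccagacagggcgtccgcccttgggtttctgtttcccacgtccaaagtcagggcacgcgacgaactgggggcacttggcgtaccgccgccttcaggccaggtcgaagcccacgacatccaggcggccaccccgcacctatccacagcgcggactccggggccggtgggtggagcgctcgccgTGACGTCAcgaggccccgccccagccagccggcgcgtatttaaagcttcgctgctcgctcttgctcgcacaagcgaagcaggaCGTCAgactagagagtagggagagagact
Plk1: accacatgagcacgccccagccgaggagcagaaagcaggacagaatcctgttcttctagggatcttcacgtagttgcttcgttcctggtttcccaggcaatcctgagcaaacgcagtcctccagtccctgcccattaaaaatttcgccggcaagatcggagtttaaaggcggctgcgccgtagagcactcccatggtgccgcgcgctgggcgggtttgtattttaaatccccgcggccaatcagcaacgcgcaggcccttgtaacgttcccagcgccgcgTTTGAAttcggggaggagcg
Plk4: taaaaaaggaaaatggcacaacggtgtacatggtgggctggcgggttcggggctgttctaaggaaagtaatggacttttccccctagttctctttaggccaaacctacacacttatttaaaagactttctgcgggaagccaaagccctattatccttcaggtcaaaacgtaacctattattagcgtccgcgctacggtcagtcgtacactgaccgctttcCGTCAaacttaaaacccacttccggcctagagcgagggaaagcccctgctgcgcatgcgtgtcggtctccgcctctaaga

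The full palindrome TGACGTCA was present 1 time among these windows, in Plk2, and in 1.79% of all 32851 promoter windows of the same length. TGACG on either strand matched at 3 positions in Plk2, of which 2 lie in the palindrome, at 2 in Plk3, at 1 in Plk4 and at 0 in Plk1. It was present in 20.8% of all windows. TTTGAA was present in Plk1 alone, 1 time, against 17.9% of all windows. CCAAT, searched on both strands, was likewise present in Plk1 alone (1 match, against 37.4% of all windows). GGGCGG, the letters of a GC box, matched at 2 positions in Plk2, 1 in Plk3 and 1 in Plk1, against 35.7% of all windows with a match. These matches describe the letters of the windows only.

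Totals on genes per library were 15619474 to 162270280 in RNA-seq, 10658675 to 59779770 in XR-seq and 1571167 to 6441367 in Damage-seq. The summed level of 6 defining markers was highest in the labelled organ throughout: kidney markers at 21310 to 25056 CPM (reads scaled by the library total on genes) in kidney and at most 119 elsewhere, liver markers at 79324 to 137508 in liver and at most 433 elsewhere, lung markers at 68061 to 75856 in lung and at most 27.9 elsewhere, and B cell markers at 3326 to 3742 in spleen and at most 386 elsewhere. A note with the series states that labels of lung and spleen RNA-seq libraries were corrected, and the present labels were used. Pancreas acinar markers summed to 1880 and 1412 CPM in the cisplatin spleens and to 15.9 and 14.8 in the control spleens, and their part in the spleen results was not tested. The control libraries of lung, and those of spleen, differed by little more than read sampling (an index of 2.75 and 2.98, where 1 is sampling alone and the other RNA-seq pairs had 39.3 or more), so each pair was summed and counted as 1 sample. Tests in lung and spleen therefore set 1 control against 2 cisplatin samples and assume that the control varies as the cisplatin samples do.

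Plk3 is a stress-responsive kinase, and in kidney it stood at 4.87 and 3.62 CPM in the control libraries and at 431 and 414 CPM after cisplatin. The groups lie far apart, and the controls are the lowest Plk3 values of any organ while the cisplatin values are the highest. The fitted log2 fold change was 6.72 (SE 0.22, n = 2 per group), the 4th highest of 15471 genes. Plk2, another early response kinase, went from 15.3 and 11.3 CPM to 97.7 and 86.6 CPM, a log2 fold change of 2.86 (SE 0.20) and rank 82. Plk1, the mitotic kinase, was barely detected in kidney, with 0.673 and 0.836 CPM in controls and 0.960 and 0.525 CPM after cisplatin, on 13 to 46 reads. Plk4 stood at 3.78 and 1.87 CPM in controls and at 3.84 and 2.01 CPM after cisplatin, so its groups overlapped, as did those of Plk1. The log2 fold changes of Plk1 and Plk4 were −0.05 (SE 0.57) and 0.11 (SE 0.49). In this contrast 2 of 4 members were past the call rule, an adjusted p under 0.05 against a log2 fold change of 0.4, which 5.05% of all genes were past, and nothing is read from that count because the contrast chose the family.

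Per length of transcript, measured as CPM per kilobase of exon (RPKM), Plk3 supplied 31.1% of the summed RPKM of the 4 kinases in control kidney and 88.7% after cisplatin. Its mean level went from 1.68 ± 0.35 to 167 ± 4.82 RPKM (SD, n = 2). Plk2 went from 2.96 ± 0.62 to 20.5 ± 1.75 RPKM (SD, n = 2) and its share of the family from 54.9% to 10.9%. The predominant family transcript in kidney thus went from Plk2 to Plk3.

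**Figure D1:**
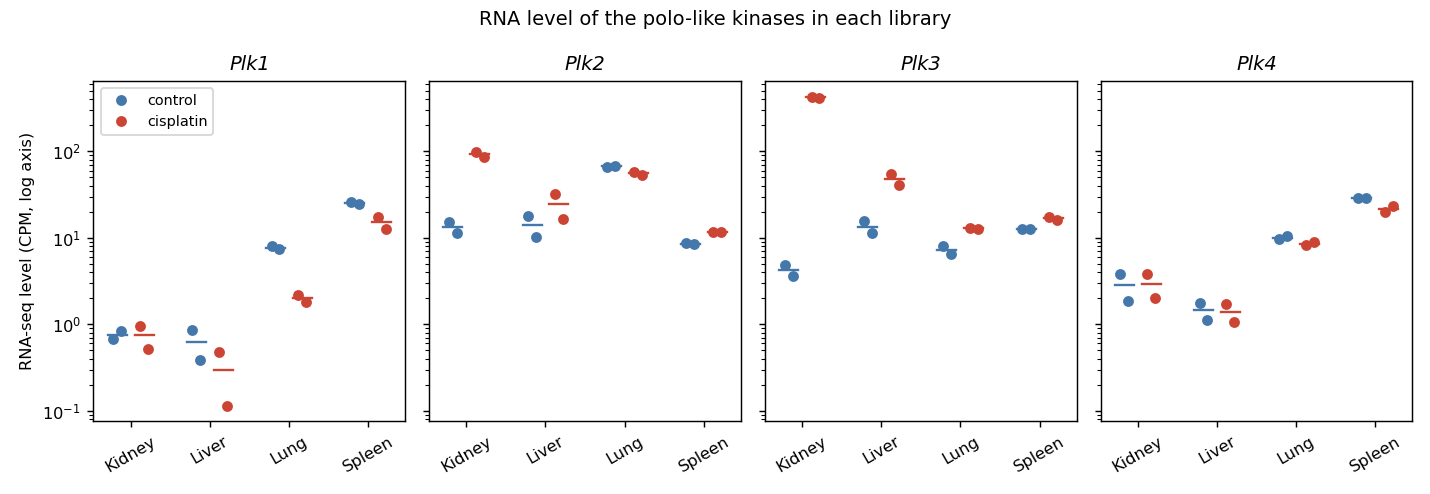
RNA level of Plk1, Plk2, Plk3 and Plk4 in every library, in CPM on a log axis, with control libraries in blue, cisplatin libraries in red and a line at the mean of each pair. The kidney cisplatin libraries of Plk3, at 431 and 414 CPM, stand above every other point.

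In the other organs the cisplatin libraries of Plk3 also lay above the controls, by amounts that declined from liver to lung to spleen and did not pass the test. In liver, Plk3 was at 15.5 and 11.4 CPM in controls and at 55.0 and 40.5 CPM after cisplatin. The groups did not overlap. The log2 fold change was 1.84 (SE 0.31, 3.58-fold), higher than that of 99.1% of genes, but it did not pass the threshold across all genes (edgeR adjusted p = 0.106). In liver edgeR called 0 of 13868 genes (0%), with 1287 at an unadjusted p under 0.05, while DESeq2 called 189, Plk3 among them (adjusted p = 0.0211). Of the 4 members edgeR called 0 in liver, and 1, Plk3, had an unadjusted p under 0.05. The result for Plk3 thus depended on the fit: it passed in 6 of 10 alternatives, among them leaving out cisplatin replicate 1 (adjusted p = 0.00041) or cisplatin replicate 2 (adjusted p = 0.00422) and the replicate block (adjusted p = 8.83e-05). It did not pass without control replicate 1 (adjusted p = 0.637), without control replicate 2 (adjusted p = 0.668), without TMM (adjusted p = 0.417) or against 0 (adjusted p = 0.0777). Over the 10 alternatives the adjusted p in edgeR or DESeq2 ranged from 8.83e-05 to 0.668.

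In lung, Plk3 was at 8.13 and 6.48 CPM in controls and at 12.9 and 12.7 CPM after cisplatin. The log2 fold change was 0.89 (SE 0.26, edgeR adjusted p = 0.29). The neighbour Tctex1d4, which shares 84 bp with Plk3, went from 15.3 and 13.1 CPM to 24.1 and 33.4 CPM in the same lung libraries, and its part in the Plk3 counts was not tested. In kidney Tctex1d4 was at 0.320 CPM or less in every library. In spleen, Plk3 was at 12.7 and 12.8 CPM in controls and at 17.6 and 16.3 CPM after cisplatin, a log2 fold change of 0.44 (SE 0.21, edgeR adjusted p = 1). Cisplatin libraries were above the controls without overlap in both organs, though neither difference passed.

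Plk2, which is also an early response gene, had differences in both directions outside kidney. In liver it was at 18.0 and 10.3 CPM in controls and at 32.4 and 16.3 CPM after cisplatin, and the groups overlapped. The log2 fold change was 0.76 (SE 0.36, edgeR adjusted p = 0.755). Lung held the highest control level of Plk2, at 66.5 and 68.0 CPM, and the cisplatin libraries lay below it at 58.3 and 53.4 CPM. This difference, −0.28 on the log2 scale (SE 0.16), did not pass (edgeR adjusted p = 1). In spleen Plk2 was at 8.68 and 8.45 CPM in controls and at 11.8 CPM in both cisplatin libraries (log2 fold change 0.50, SE 0.23, edgeR adjusted p = 1). Plk2 was thus above control in liver and spleen and below it in lung, with none of these differences past the threshold.

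Plk1, whose RNA marks cells near mitosis, was most abundant in spleen and lower after cisplatin in lung. In lung it was at 8.03 and 7.36 CPM in controls and at 2.21 and 1.81 CPM after cisplatin. The groups did not overlap, and the log2 fold change was −1.91 (SE 0.31, edgeR adjusted p = 0.0484). This was the only member called outside kidney (1 of 4), against 2.09% of the 18210 lung genes, or 1.96% called lower. The call was close to its threshold, and it was lost in 6 of 11 alternatives, among them leaving out control replicate 1 (adjusted p = 0.0552) or control replicate 2 (adjusted p = 0.0536), leaving out either cisplatin replicate in the joint fit (adjusted p = 0.571 and 1), and library sizes without TMM (adjusted p = 0.0654). The log2 fold change stayed between −2.04 and −1.80 in all 11, with an adjusted p from 0.00215 to 1.

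Markers of lymphocytes and of erythroid precursors moved with Plk1 in lung. The 6 B cell markers summed to 379 and 386 CPM in control lung and to 117 and 86.9 CPM after cisplatin, with all 6 markers detected at 1 CPM or more in each group. The 6 T cell markers summed to 164 and 161 CPM in controls and to 49.2 and 41.1 CPM after cisplatin. The 6 erythroid precursor markers summed to 370 and 361 CPM in controls and to 263 and 229 CPM after cisplatin, with 4 of the 6 at 1 CPM or more in each group. That sum was also 193 and 155 CPM in control kidney and 50.6 and 51.0 CPM in control liver, so it is not confined to lung and spleen. Neutrophil markers in lung rose, from 41.0 and 42.6 to 70.9 and 95.6 CPM, with 2 of the 6 at 1 CPM or more in each group. Their part in the lung result was not tested.

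In spleen Plk1 was at 26.3 and 24.9 CPM in controls and at 17.6 and 12.6 CPM after cisplatin. The groups did not overlap, but the log2 fold change of −0.72 (SE 0.27) did not pass (edgeR adjusted p = 1). Erythroid precursor markers summed to 699 and 696 CPM in control spleens and to 664 and 334 CPM after cisplatin. B cell markers summed to 3529 and 3550 CPM in controls and to 3326 and 3742 CPM after cisplatin. T cell markers went from 639 and 632 to 775 and 741 CPM, and neutrophil markers from 417 and 422 to 526 and 815 CPM. The second cisplatin spleen had the lower Plk1 value and erythroid sum, and the higher B cell and neutrophil sums. The part of these cell types in the spleen result was not tested. In liver Plk1 rested on 4 to 35 reads per library, with 0.855 and 0.392 CPM in controls and 0.477 and 0.114 CPM after cisplatin. These groups overlapped (log2 fold change −1.13, SE 0.78, edgeR adjusted p = 0.845).

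Plk4, the centriole kinase, followed the organ order of Plk1 but showed smaller differences. It was at 28.8 and 29.3 CPM in control spleen and at 19.7 and 23.2 CPM after cisplatin (log2 fold change −0.42, SE 0.18, edgeR adjusted p = 1). In lung it was at 9.58 and 10.5 CPM in controls and at 8.20 and 8.90 CPM after cisplatin (log2 fold change −0.27, SE 0.26, edgeR adjusted p = 1). In both organs the groups did not overlap, and neither difference passed. In liver the levels were 1.78 and 1.11 CPM in controls and 1.74 and 1.05 CPM after cisplatin, and the log2 fold change was −0.05 (SE 0.49, edgeR adjusted p = 0.994). In spleen 0 of 4 members were called by edgeR, with 0 at an unadjusted p under 0.05 and 0 by DESeq2, against 0.181% of the 17686 genes tested.

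**Figure D2:**
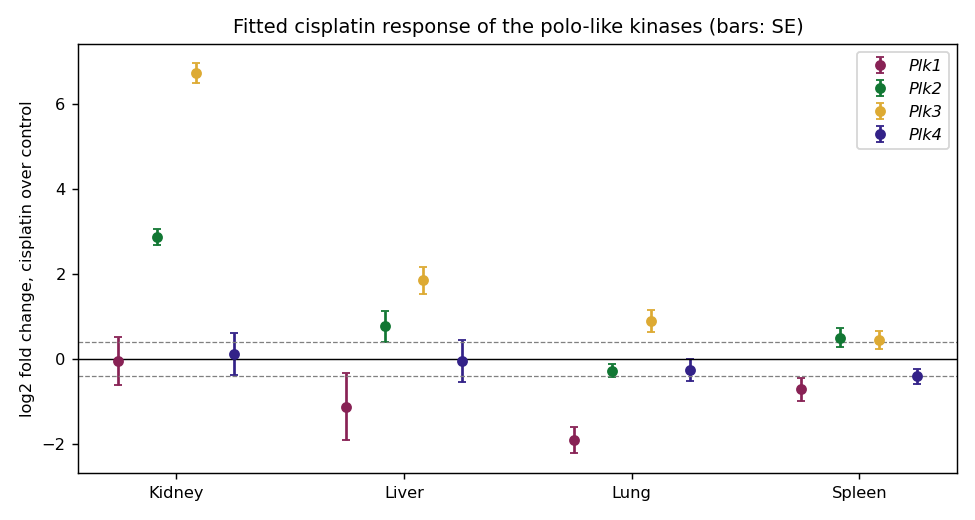
Fitted log2 fold change of each kinase, cisplatin over control, by organ. Points are the edgeR estimates, bars their SE, and dashed lines the tested limit of 0.4. Plk3 runs from 6.72 in kidney to 0.44 in spleen, and Plk1 is lowest in lung at −1.91. Kidney values are a description because they chose the family.

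Differences of the response between liver, lung and spleen were then tested directly in a joint fit of all organs. The response of Plk3 was 1.45 higher in liver than in spleen on the log2 scale (SE 0.29, edgeR adjusted p = 0.187) and 0.94 higher in liver than in lung (SE 0.29, edgeR adjusted p = 0.503). For Plk2 the largest difference was 1.03, liver above lung (SE 0.38, edgeR adjusted p = 0.621). For Plk1 it was −1.14, lung below spleen (SE 0.76, edgeR adjusted p = 1). Of the 4 members 0 passed in liver against lung (0% of 19100 genes, with 1292 genes and 2 members at an unadjusted p under 0.05), 0 in liver against spleen (0.0366%, 1 member) and 0 in lung against spleen (0.0105%, 0 members). DESeq2 was not run for these differences. With each library counted as a sample, the liver and spleen difference of Plk3 passed (1.38, edgeR adjusted p = 0.0145), and over the 3 alternatives its adjusted p ran from 0.0145 to 0.16. With the replicate number as a block, this difference also passed, as did that of Plk3 between liver and lung (0.97, edgeR adjusted p = 0.0467) and that of Plk2 between liver and lung (0.99, edgeR adjusted p = 0.0293), so that 2 members passed in liver against lung under the block.

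The order of the organs differed between the kinases. In controls Plk3 was highest in liver, at 13.4 CPM, then in spleen at 12.8, in lung at 6.92 and in kidney at 4.24. The liver libraries spanned those of spleen, so these neighbours did not differ beyond their spread, whereas no libraries of spleen and lung or of lung and kidney overlapped. After cisplatin the order was kidney at 422 CPM, liver at 47.7, spleen at 16.9 and lung at 12.8, with no overlap between neighbours. Control Plk2 was highest in lung at 67.6 CPM, then 14.2 in liver and 13.3 in kidney, whose libraries overlapped, and 8.52 in spleen. Plk1 and Plk4 shared 1 order in controls, spleen above lung above kidney above liver. Plk1 stood at 25.3, 7.54, 0.754 and 0.623 CPM in that order, and Plk4 at 29.1, 10.3, 2.82 and 1.45 CPM. The kidney and liver libraries of Plk1 overlapped, and those of Plk4 were separated by less than the spread within either organ. Plk5, the remaining polo-like kinase of the mouse, was at 5.81 CPM or less in all 16 libraries and at 0 to 4 reads in spleen.

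Across the 14 RNA-seq samples left after summing, the gene whose log2 (CPM + 1) level was most like that of Plk3, among 14888 genes with a mean of at least 1 CPM, was Rnd3 (Pearson r = 0.897). Next came Gdf15, a secreted stress cytokine (r = 0.893), Psmd12, a proteasome subunit (r = 0.891), Tuba1c, an alpha-tubulin (r = 0.853), and Sra1 (r = 0.850). Gdf15 went from 7.66 and 6.09 CPM in control kidney to 201 and 263 CPM after cisplatin, and Rnd3 from 12.4 and 12.1 to 150.0 and 129 CPM. The genes most like Plk1 were Ccnb2, a mitotic cyclin (r = 0.998), Cenpe, a kinetochore motor (r = 0.995), Ncapg, a condensin subunit (r = 0.995), Ccna2, a cyclin of S phase and mitosis (r = 0.995), and Kif22, a chromosome motor (r = 0.994). Plk4 had r = 0.947 with Plk1, whereas Plk2 had r = 0.585 with Plk3, and Plk1 and Plk3 had r = −0.274. These coefficients describe samples that share organs and libraries, and they carry no p-value. Those with Plk3 include the kidney contrast that chose the family. Plk3 stood there at 431 and 414 CPM after cisplatin, and at 55.0 CPM or less in every other library. The genes named beside Plk3 are therefore a description, and shared regulation was not tested.

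Other genes of the pathways were followed by lists chosen with earlier results of these data known. Of 26 partners of Plk1 and mitotic genes, all 26 were tested in lung, 24 had a log2 fold change below 0, and 2 fell past the threshold against 0 that rose, where 1.96% of all lung genes were called lower. The 2 were Cdca8, a subunit of the chromosomal passenger complex (−1.81, SE 0.29, edgeR adjusted p = 0.0457), and Birc5, or survivin, of the same complex (−1.67, SE 0.27, edgeR adjusted p = 0.0491). Ccnb1, the mitotic cyclin, was at −2.01 (SE 0.37) with an adjusted p of 0.0645 in edgeR. The median of the list in lung was −1.24, beside 0.03 over all genes tested. The median was −0.71 in liver, −0.53 in spleen and −0.01 in kidney, with 0 genes called in each.

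Of 12 partners of Plk4 and centriole genes, 0 were called in any organ. Their medians were −0.40 in spleen, −0.40 in lung, −0.71 in liver and −0.82 in kidney, with all 11 tested in kidney below 0. Btrc, a subunit of the ubiquitin ligase that degrades Plk4, was at −2.26 in liver (SE 0.34, edgeR adjusted p = 0.0911) and at −1.15 in lung (SE 0.23, edgeR adjusted p = 0.108). Of the 14 DNA damage checkpoint genes found, 0 were called in any organ, and the medians lay between −0.79 in liver and −0.16 in lung.

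The lists closest to Plk2 and Plk3 in kind were those of p53 targets and of immediate-early genes. In kidney, whose values are a description, all 12 immediate-early genes were past the call rule upward, where 2.4% of all kidney genes were, with a median of 3.07, led by Atf3 at 6.18 and Egr1 at 4.13. Atf3, a stress-induced transcription factor, stood at 2.02 and 3.27 CPM in control kidney and at 179 and 207 CPM after cisplatin. Of the 10 p53 targets, 6 were past the call rule upward in kidney and all 10 were above 0. Their median was 1.65, led by the cell cycle inhibitor Cdkn1a at 4.33. No call is read from kidney, because its contrast chose the family. In lung 2 immediate-early genes rose, Fos (1.75, SE 0.27, edgeR adjusted p = 0.0391) and Dusp1 (1.66, SE 0.21, edgeR adjusted p = 0.026), of 12 in the list, where 0.132% of all lung genes were called higher. The list's median was 0.44. Cdkn1a was the 1 p53 target of 10 that rose in lung, from 150.0 and 143 CPM to 503 and 587 CPM (1.91, SE 0.20, edgeR adjusted p = 0.019). In liver the medians were 1.25 for immediate-early genes and 0.96 for p53 targets, and in spleen 0.33 and 0.24, with 0 genes called in either organ. The medians of both lists declined from liver to lung to spleen. So did the log2 fold changes of Plk3, none of which passed there in the main edgeR fit. Those of Plk2 did not follow this order, at 0.76 in liver, −0.28 in lung and 0.50 in spleen. Shared regulation with either list was not tested. Kidney was highest for both lists and for Plk3, but its place for Plk3 was set by the choice of the family.

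**Figure D3:**
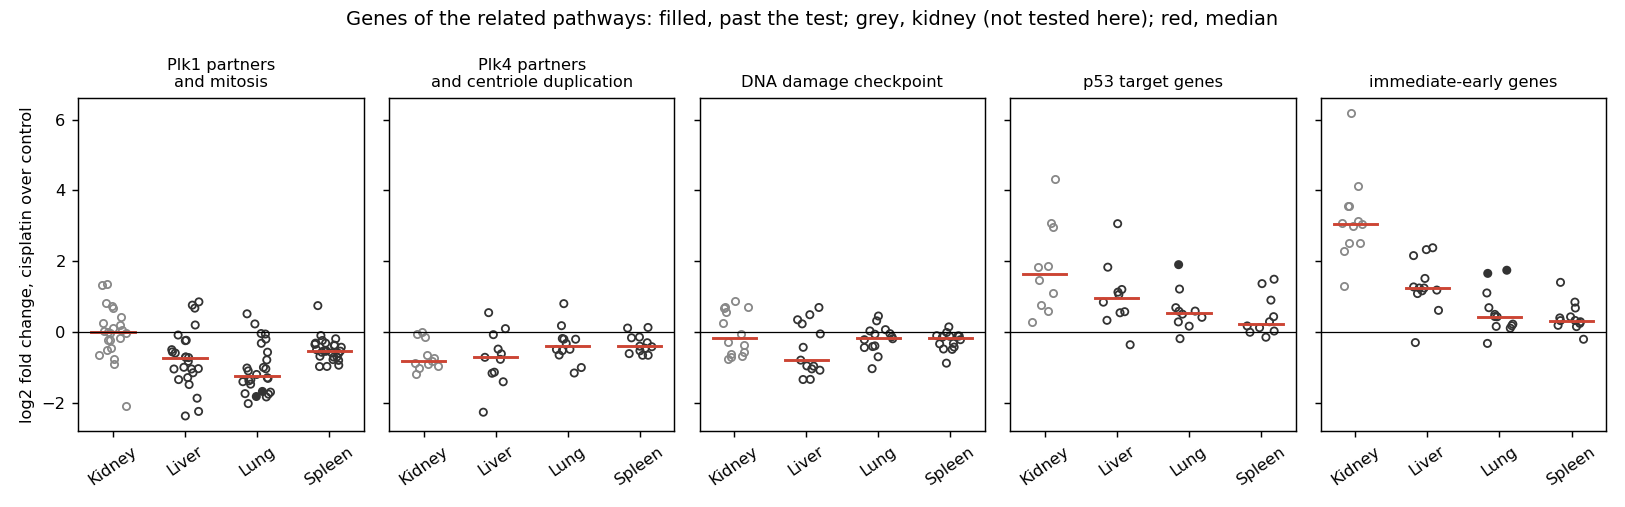
Log2 fold change, cisplatin over control, of every tested gene of 5 lists, by organ. Each circle is a gene, filled where it passed the test, grey in kidney, where no test is read, and the red line is the list's median. Immediate-early genes run from a median of 3.07 in kidney to 0.33 in spleen, and the mitotic list is lowest in lung at −1.24.

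The repair of the family was read from XR-seq, with counts given as CPM per 1000 GG dinucleotides of the strand, so that strands and genes with different numbers of target sites can be set side by side. Plk1 has 824 GG on its TS and 817 on its NTS, Plk2 has 327 and 346, and Plk4 has 654 and 812. Reads are not independent molecules, and intervals below cover counting error only.

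Repair of Plk1 was almost wholly on the TS. The libraries held 166 TS and 0 NTS reads and 545 and 13 in spleen, 711 and 23 and 592 and 1 in lung, 520 and 7 and 419 and 33 in liver, and 356 and 41 and 235 and 21 in kidney. Summed over 8 libraries the TS took 96.2% of Plk1 reads (95% Wilson interval 95.6 to 96.8). The mean log2 ratio of TS over NTS per GG over 4 organs was 5.25 (SE 0.69, edgeR adjusted p = 6.92e-05). Every library had more reads on the TS.

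Plk2 showed the same imbalance. The libraries held 457 TS and 0 NTS reads and 550 and 15 in kidney, 900 and 110 and 607 and 65 in lung, 685 and 29 and 435 and 61 in liver, and 47 and 2 and 187 and 7 in spleen. The TS took 93.0% of the reads (95% Wilson interval 92.2 to 93.8), and the mean log2 ratio was 4.64 (SE 0.59, edgeR adjusted p = 5.86e-05). Plk4, in contrast to this, had many NTS reads. Its libraries held 164 TS and 138 NTS reads and 718 and 355 in spleen, 734 and 432 and 613 and 367 in lung, 600 and 868 and 592 and 544 in liver, and 29 and 62 and 358 and 213 in kidney. The TS took 56.1% of the reads (95% Wilson interval 54.9 to 57.3), and per GG the TS was higher in 6 of 8 libraries.

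The mean log2 ratio of Plk4 was 0.59 (SE 0.23, edgeR adjusted p = 0.0425). All 3 members were thus called with the TS higher, but so were 64.6% of all genes (74.7% called in either direction), whose median log2 ratio was 2.45. The ratios of Plk1 and Plk2 were above that median and that of Plk4 below it, and the difference between members was not tested. The call of Plk4 was lost in 7 of 10 alternatives, among them without the GG scaling (log2 ratio 0.27, adjusted p = 0.311) and without kidney replicate 2 (0.34, adjusted p = 0.133), liver replicate 1 (0.66, adjusted p = 0.0696), liver replicate 2 (0.50, adjusted p = 0.152), lung replicate 1 (0.58, adjusted p = 0.103), lung replicate 2 (0.59, adjusted p = 0.1) or spleen replicate 2 (0.49, adjusted p = 0.136) in edgeR. Over the 10 alternatives the adjusted p ran from 0.00129 to 0.311. Mfsd8, on the minus strand, ends 1219 bp beyond the end of Plk4 without overlap, and its part in the Plk4 reads was not tested.

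Within single organs Plk1 and Plk2 were called in each, 2 of 3 members, against 65.1% of genes in lung, 63.5% in spleen, 61.2% in kidney and 56.9% in liver. The log2 ratio of Plk1 was 3.28 in kidney (SE 1.21, edgeR adjusted p = 0.04) and 6.45 in lung (SE 1.47, edgeR adjusted p = 0.00347), and that of Plk2 was 6.87 in kidney (SE 1.34, edgeR adjusted p = 0.0016) and 3.21 in lung (SE 1.05, edgeR adjusted p = 0.0234). Ratios that rest on a library with 0 or 1 NTS reads moved with single libraries. That of Plk2 in kidney was 5.27 without kidney replicate 1 and 12.90 without kidney replicate 2, which leaves the library with 0 NTS reads, and that of Plk1 in lung was 8.98 without lung replicate 1 and 4.93 without lung replicate 2. Both calls held in all 10 alternatives. The kidney call of Plk1 was lost without kidney replicate 1, kidney replicate 2, liver replicate 1 or liver replicate 2 (adjusted p between 0.0587 and 0.0646 in edgeR), and the lung call of Plk2 without either lung replicate (adjusted p = 0.148 and 0.15). Without liver replicate 1 or 2 the liver call of Plk1 was lost (edgeR adjusted p = 0.179 and 0.0503), as was that of Plk2 (edgeR adjusted p = 0.233 and 0.0771). The spleen call of Plk2 was lost without spleen replicate 1 or 2 (edgeR adjusted p = 0.0543 and 0.0805), while that of Plk1 held in all 10 alternatives, with a log2 ratio of 6.44 (SE 1.48) that was 12.1 without spleen replicate 2. Plk4 ranged from 0.11 in liver to 1.06 in lung and was not called in any organ.

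**Figure D4:**
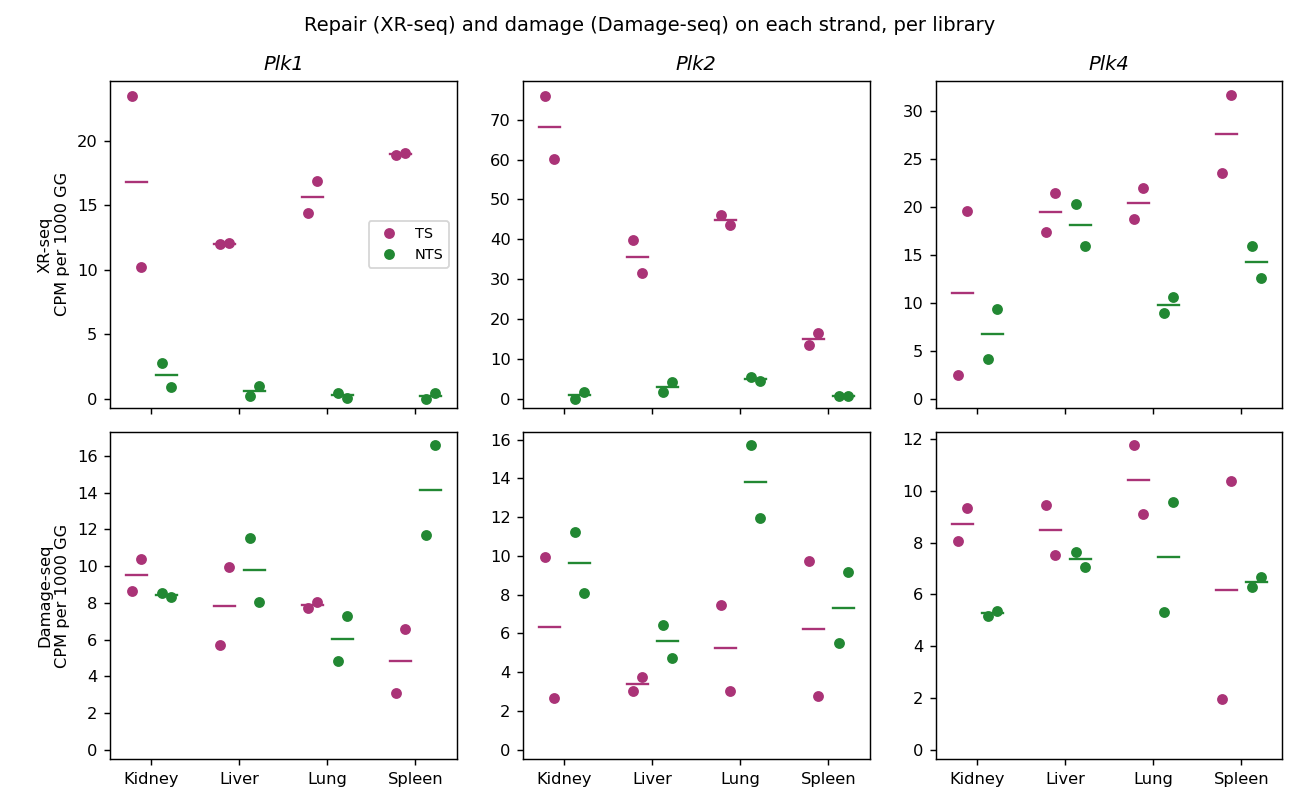
XR-seq (upper row) and Damage-seq (lower row) reads of Plk1, Plk2 and Plk4 in CPM per 1000 GG, with TS in magenta and NTS in green, a point for each library and a line at the mean of each pair. In XR-seq the TS of Plk1 and Plk2 lies above the NTS in all 8 libraries, while the TS of Plk4 lies above the NTS in 6 of 8. In Damage-seq the strands of every gene overlap in range when all organs are pooled. Within some single organs they lie apart, among them Plk1 in spleen and Plk2 in lung (TS lower) and Plk4 in kidney (TS higher).

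The level of TS repair differed between organs for Plk2. It was 75.9 and 60.2 CPM per 1000 GG in kidney, 46.0 and 43.6 in lung, 39.7 and 31.6 in liver and 13.5 and 16.5 in spleen. No libraries of neighbouring organs in this order overlapped. Kidney was above the mean of the other organs by 1.05 on the log2 scale (SE 0.22, edgeR adjusted p = 0.00251), and spleen was below it, at −1.69 (SE 0.26, edgeR adjusted p = 0.000281). Of 3 members 1 was called in each of these comparisons, where 32.5% of genes were called for kidney and 28% for spleen, and both calls were kept under all 11 alternatives. After cisplatin the RNA of Plk2 stood at 92.2 CPM in kidney, 55.8 in lung, 24.3 in liver and 11.8 in spleen. That was also the order of its TS repair, but the kidney RNA value belongs to the contrast that chose the family. In control RNA the order was lung at 67.6 CPM, liver at 14.2, kidney at 13.3 and spleen at 8.52. The control libraries of liver and kidney overlapped.

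Plk1 did not have such a pattern. Its TS repair was 18.9 and 19.1 CPM per 1000 GG in spleen, 14.4 and 16.9 in lung, 12.0 and 12.1 in liver and 23.5 and 10.2 in kidney. The spleen, lung and liver libraries did not overlap and had the order of its RNA after cisplatin. That RNA ran from 0.114 CPM in a liver library to 17.6 in a spleen library. The kidney libraries spanned the range of all the others, and no difference between organs was called on the TS (edgeR adjusted p = 0.754, where 58.3% of genes were called). TS repair of Plk4 was 23.5 and 31.7 CPM per 1000 GG in spleen, 18.8 and 22.0 in lung, 17.4 and 21.5 in liver and 2.41 and 19.6 in kidney. The value of 2.41, from kidney replicate 1 with 29 reads, was the lowest, and no difference between organs was called (edgeR adjusted p = 0.226).

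On the NTS the 1 member called was Plk4, with 20.3 and 15.9 CPM per 1000 GG in liver, 15.9 and 12.6 in spleen, 8.90 and 10.6 in lung and 4.15 and 9.39 in kidney. The kidney and lung libraries overlapped. Kidney differed from the mean of the other organs by −1.53 (SE 0.34, edgeR adjusted p = 0.0159), where 12.9% of genes were called. Kidney replicate 1 was the lowest library. Without it the difference was −0.99 (edgeR adjusted p = 0.0485) and without kidney replicate 2 it was −2.29 (edgeR adjusted p = 0.000657), and over all 11 alternatives the adjusted p stayed between 0.000203 and 0.0485. NTS repair of Plk1 and Plk2 rested on 0 to 110 reads per library, and no difference between organs was called for them (edgeR adjusted p = 0.764 and 0.222, where 26.3% of genes were called).

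Damage-seq was shallow for single genes, with 2 to 49 TS reads and 3 to 47 NTS reads per library over the 3 kinases. Plk1 held 224 TS and 240 NTS reads over 8 libraries, a TS share of 48.3% (95% Wilson interval 43.8 to 52.8). Plk4 held 200 and 181, a share of 52.5% (interval 47.5 to 57.5). Plk2 held 59 and 118, a share of 33.3% (interval 26.8 to 40.6), and it had more NTS reads per GG in 7 of 8 libraries. Reads from adducts still in the DNA were thus fewer on the TS of Plk2 than on its NTS.

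Per GG, the mean log2 ratio of TS over NTS in Damage-seq was −0.83 for Plk2 (SE 0.35, edgeR adjusted p = 0.0405), −0.35 for Plk1 (SE 0.19, edgeR adjusted p = 0.127) and 0.36 for Plk4 (SE 0.21, edgeR adjusted p = 0.176). So 1 of 3 members was called lower on the TS, against 41.9% of all genes (44.7% called in either direction), and the median of all genes was −0.25. The call of Plk2 was lost without kidney replicate 2 (−0.70, adjusted p = 0.127), liver replicate 1 (−0.72, adjusted p = 0.199), liver replicate 2 (−0.90, adjusted p = 0.0522), lung replicate 2 (−0.73, adjusted p = 0.0687) or spleen replicate 2 (−0.52, adjusted p = 0.354) in edgeR. Over 10 alternatives the log2 ratio stayed below 0 and the adjusted p ran from 0.014 to 0.354. In single organs Plk2 was called in lung, where the libraries held 13 TS and 29 NTS reads and 6 and 25 (−1.44, SE 0.54, edgeR adjusted p = 0.031), against 28.5% of genes. Plk1 was called in spleen, on 4 TS and 15 NTS reads and on 12 and 30 (−1.52, SE 0.46, edgeR adjusted p = 0.0143), against 13.7% of genes, and without spleen replicate 1 or 2 the adjusted p was 0.157 or 0.188. The lung call of Plk2 was lost without lung replicate 2 (adjusted p = 0.235) or kidney replicate 1 (adjusted p = 0.0559) in edgeR.

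Between organs no Damage-seq difference of a member was called. On the TS the adjusted p of edgeR's test over 4 organs was 0.483 for Plk1, 0.889 for Plk2 and 0.586 for Plk4, where 31.9% of genes were called. On the NTS it was 0.0512 for Plk1, 0.251 for Plk2 and 0.58 for Plk4, where 18% were called. NTS damage of Plk1 was 11.7 and 16.6 CPM per 1000 GG in spleen and 4.82 and 7.28 in lung, the highest and lowest organs, on 15 to 36 reads. Of 3 members 0 on the TS and 1, Plk1, on the NTS had an unadjusted p under 0.05. Plk2 had as few as 2 reads on a strand in a library.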

How the data were processed

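The 3 assays were analysed from files that hold raw counts per gene, deposited by the authors without normalization. Per the study's methods and processing notes, the authors aligned RNA-seq reads with STAR and counted them with featureCounts, and for XR-seq and Damage-seq used cutadapt for trimming, BWA for alignment (mm10) and Picard for duplicates and kept reads with GG at the adduct position. Tool versions are not given in the sources used here. These steps could lower the counts of genes with repeats or overlaps and were not repeated. Blank lines, 1 in each XR-seq and Damage-seq count file and 16 in all, were dropped.

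Samples were grouped by their labels. Cisplatin and control were compared in each organ with edgeR 4.0.16 in R 4.3.3 (TMM, filterByExpr, quasi-likelihood fit, threshold test at a log2 change of 0.4). A call needed a p under 0.05 after Benjamini-Hochberg adjustment over all genes tested. All 4 kinases passed the filter in each organ. RNA-seq pairs with a chi-square index of 3 or less were summed. Damage-seq pairs had an index of 1.43 to 3.11 and were not summed. Damage-seq p-values therefore count each library as a sample. TS and NTS were compared within libraries with the library as a block and an offset for GG counts on GRCm38, and organs with each strand's counts, both against 0. The study calls the replicates biological, but the labels do not tie each library to an animal, so p-values measure the spread between these samples. The p-values rest on 2 samples per group, or 1 where a pair was summed. Wilson intervals (95%) cover counting error only. DESeq2 1.42.0, other filters, scalings and leave-outs were alternatives. Simulated data with a fixed spread were used for the kidney and lung RNA-seq fits, the XR-seq strand fit and the XR-seq TS organ fit. The other fits were not tested on simulated data. The members and gene lists were chosen with earlier results of these data known. Genes were named by rule: the 4 members, Plk5, up to 4 genes per list and organ with the largest change, and the 5 genes most like Plk3 and Plk1 in level. RNA-seq levels are CPM over reads on genes.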

Additional observations from a re-analysis of the deposited data

How the results depend on the processing

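The signs compared were those of RNA changes outside the kidney contrast, of mean strand ratios and of called single-organ XR-seq and Damage-seq values. Such single-organ values that were not called were left out, except the XR-seq strand ratios of Plk4. Among the values compared, 7 alternatives changed sign, all of Plk4. The log2 fold change in liver RNA was 0.19 without control replicate 1 and 0.05 without cisplatin replicate 2 (range without 1 library, −0.25 to 0.19). The mean Damage-seq log2 strand ratio was −0.060 without spleen replicate 2 (range −0.060 to 0.53). The XR-seq log2 strand ratio was −0.088 in kidney and −0.21 in liver without GG scaling. It was also −0.78 in kidney without kidney replicate 2 (range −0.78 to 1.06) and −0.22 in liver without liver replicate 2 (range −0.22 to 0.43). The causes were not tested. None of these values passed a threshold.

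Counts of called genes moved by over 1.5 times as follows. Without a filter edgeR called 1896 kidney, 155 liver, 1089 lung and 58 spleen genes. Against 0 in place of 0.4 it called 1711 in kidney and 804 in lung. The joint fit called 518 in liver and 70 in lung, DESeq2 189 in liver and 85 in spleen, and with each library a sample 1606 were called in lung and 62 in spleen. Leaving out 1 library gave 22 to 97 in spleen, 0 to 339 in lung, 22 to 1840 in liver and 123 to 2005 in kidney. A library left out of an arm of 2 leaves 1 sample, assumed to vary like the rest, and for cisplatin lung and spleen this needed the joint fit. Differences between organs numbered 83, 56 and 104 (liver against lung, liver against spleen, lung against spleen) without a filter and 111, 247 and 112 with each library a sample. In Damage-seq DESeq2 gave 3111 genes that differed between organs on the TS and 1347 on the NTS. Leaving out 1 library gave 3250 to 9203 on the XR-seq NTS and 1134 to 4219 on the Damage-seq NTS.

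Without TMM the lung calls were 13 higher and 244 lower, against 24 and 357 with it, and the kidney calls 302 and 465, against 372 and 410.

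Replicate numbers are shared across arms, but nothing states that they pair samples. The difference between replicates 1 and 2 correlated between control and cisplatin at 0.241 in spleen, 0.0840 in lung, 0.501 in liver and 0.608 in kidney. With the replicate block edgeR called 3182, 1015, 1914 and 172 genes in kidney, liver, lung and spleen, and 567, 684 and 457 for the differences between organs. With the block Plk3 passed in liver (1.84, adjusted p = 8.83e-05), and so did its differences between liver and lung (0.97, adjusted p = 0.0467) and liver and spleen (1.38, adjusted p = 0.0145), and that of Plk2 between liver and lung (0.99, adjusted p = 0.0293). The block changed no other RNA-seq call of a member.

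Limits: each organ has 2 libraries per arm, and Plk1 in kidney and liver and all kinases in Damage-seq rest on 49 reads or fewer per strand or library.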
